A study of Mus musculus with 6 samples.

Results

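The nuclear-encoded genes of the mitochondrial respiratory chain and ATP synthase were followed in mouse brain RNA after cranial irradiation. They were the rows of the expression table whose symbol began with Ndufa, Ndufb, Ndufc, Ndufs or Ndufv and a digit, with Uqcr, with Cox4 to Cox8 or with Atp5, together with Sdha, Sdhb, Sdhc and Sdhd. That rule gave 84 of the 23057 genes in the table: 37 of complex I, 4 of complex II, 8 of complex III, 18 of complex IV and 17 of complex V. The rule reads names only and uses no measured value. The mice were of strain C57BL/6, and 3 were mock-irradiated while 3 received 10 Gy of X-rays to the head in a collimated field. Brains were taken after perfusion 30 days later and RNA was extracted from what the labels call whole brain. The labels state no age, sex or batch, no other allele or agent, and do not say whether the replicate numbers link mice across the groups.

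The respiratory chain sits in the inner mitochondrial membrane. Complex I takes electrons from NADH and complex II takes them from succinate, ubiquinone carries them to complex III, cytochrome c carries them to complex IV, and oxygen is reduced there. Complexes I, III and IV pump protons, and complex V, the ATP synthase, uses the return flow of protons to make ATP. Some subunits are encoded in mitochondrial DNA and the rest in the nucleus, and several subunits of complex IV exist as a widespread isoform and an isoform found mainly in heart and skeletal muscle, testis or lung. Neurons depend on this system for most of the ATP that restores ion gradients.

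The deposited unit is FPKM, fragments scaled by transcript length and by the mapped total of each library. Genes whose mean reached 0.5 FPKM, 14585 in all, were tested with limma on log2(FPKM + 0.5), and a gene was called at an adjusted p under 0.05. The labels give about 30 to 40 M single-end reads of 75 nucleotides per library, and the mapped depth of each library is unknown. The FPKM total of a library lay between 472450 and 625782. Neuron markers summed to between 3840 and 4560 FPKM in the mock libraries and between 3950 and 4491 in the irradiated ones. Both groups thus carried markers of the labelled tissue. The sum hides opposite directions. Snap25, Nefl, Nefm and Stmn2 had negative log2 changes, down to −0.73 for Nefm. The other neuron markers had positive ones, up to 0.86 for Syt1, and none of the 10 was called. Beside the counts called in the marker lists below, 3.48% of all genes tested were called higher and 4.24% lower. No list was tested against those shares. Brain region markers separated the groups. The 16 cerebellum markers summed to between 1518 and 2243 FPKM in mock and between 194 and 324 in irradiated libraries, with 15 called lower. The 14 hippocampus and cortex markers summed to between 75.0 and 112 FPKM in mock and between 222 and 389 in irradiated libraries, with 6 called higher. Oligodendrocyte markers summed to between 5308 and 6385 FPKM in mock and between 2477 and 4365 in irradiated libraries, with 2 of 8 called lower. Astrocyte markers summed to between 1748 and 1972 FPKM in mock and between 1218 and 1469.8 in irradiated libraries, also with 2 of 8 called lower. Those 2 were Aqp4 and S100b. Gfap, Aldh1l1 and Slc1a2 had positive log2 changes, of 0.28, 0.25 and 0.43, and the others were negative. Aldoc alone gave between 819 and 906 FPKM in mock and between 466 and 635 in irradiated libraries. Of 8 choroid plexus markers 1, Kcne2, was called lower, and their sums overlapped. Because the cerebellum and the hippocampus and cortex sums did not overlap between the groups, a difference in the regional makeup of the brains cannot be told apart from irradiation in any result below, and "rose" and "fell" compare the groups only. The part of the glial markers was not tested. In bulk tissue, fewer cells of a type and less RNA per cell cannot be told apart.

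Of the respiratory chain genes, 1 was called: Cox6a2, a complex IV subunit isoform known from heart and skeletal muscle, which rose after irradiation. No member was called lower. Of the 84 members 83 passed the filter, and Cox8c, a testis isoform, was listed at 0 in all 6 libraries. The called gene made up 1.20% of the 83 tested members, against 7.72% of all genes tested called in either direction, 3.48% called higher and 4.24% called lower. At an unadjusted p under 0.05 there were 2 members (2.41%), against 25.6% of all genes. The irradiated libraries lay wholly above the mock libraries for 3 members, Cox6a2, Cox6b2 and Cox8a, and wholly below for none. Among all genes tested, groups did not overlap for 31.5%, with 13.7% above and 17.7% below.

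The log2 change, irradiated minus mock, was positive for 62 members and negative for 21, while over all genes tested it was positive for 7032 and negative for 7553. Its median was 0.17, against −0.02 over all genes tested. The sign of that median depended on the scaling. It was −0.11 after quantile normalization and −0.01 after a correction for transcript length and GC content. By complex, in order from I to V, the median changes were 0.17, −0.18, 0.06, 0.26 and 0.16, and after quantile normalization they were −0.07, −0.42, −0.23, −0.06 and −0.15. Over all members the median was 0.03 without irradiated library 1. The 1 call held in each of these settings. The 95% interval of the log2 change lay between −1 and 1 for 63 of the 83 members, and the median distance from the estimate to an interval end was 0.58.

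**Figure D1:**
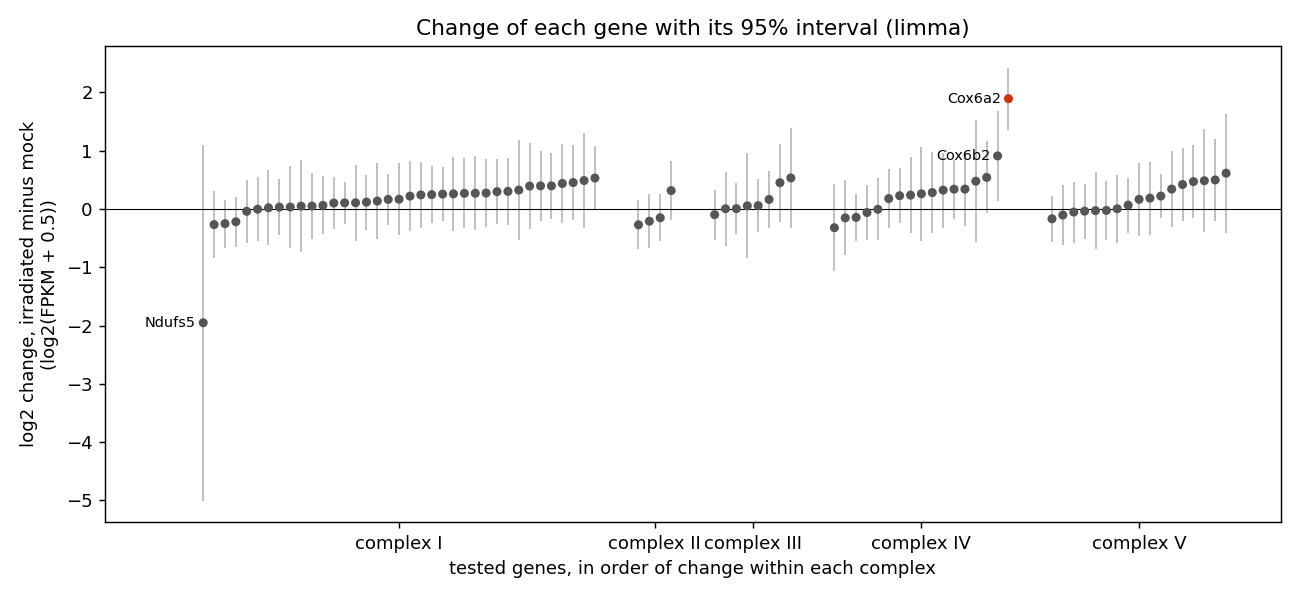
Log2 change (irradiated minus mock, log2(FPKM + 0.5) scale) of each tested respiratory chain gene, in order within its complex, with lines for the 95% interval from limma. Cox6a2, in red at 1.89, is the 1 called gene, and Ndufs5 at −1.95 has an interval from −5.00 to 1.10.

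The members were abundant transcripts. Their median level was 303 FPKM, against 9.55 FPKM over all genes tested. By complex the median was 588 FPKM for complex V, 567 for complex III, 363 for complex IV, 287 for complex I and 185 for complex II. Cox4i1, the ubiquitous form of the largest nuclear subunit of complex IV, was highest with a mean of 2565 FPKM over the 6 libraries. Atp5k, subunit e of ATP synthase, followed at 1652 FPKM, then Cox6c at 1469.7, Cox8a at 1318 and Cox6a1 at 1151. At the other end were the restricted isoforms Cox7b2 at 1.12 FPKM, Ndufa4l2 at 3.50, Cox4i2 at 3.83, Cox8b at 6.95 and Cox6a2 at 9.73.

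**Figure D2:**
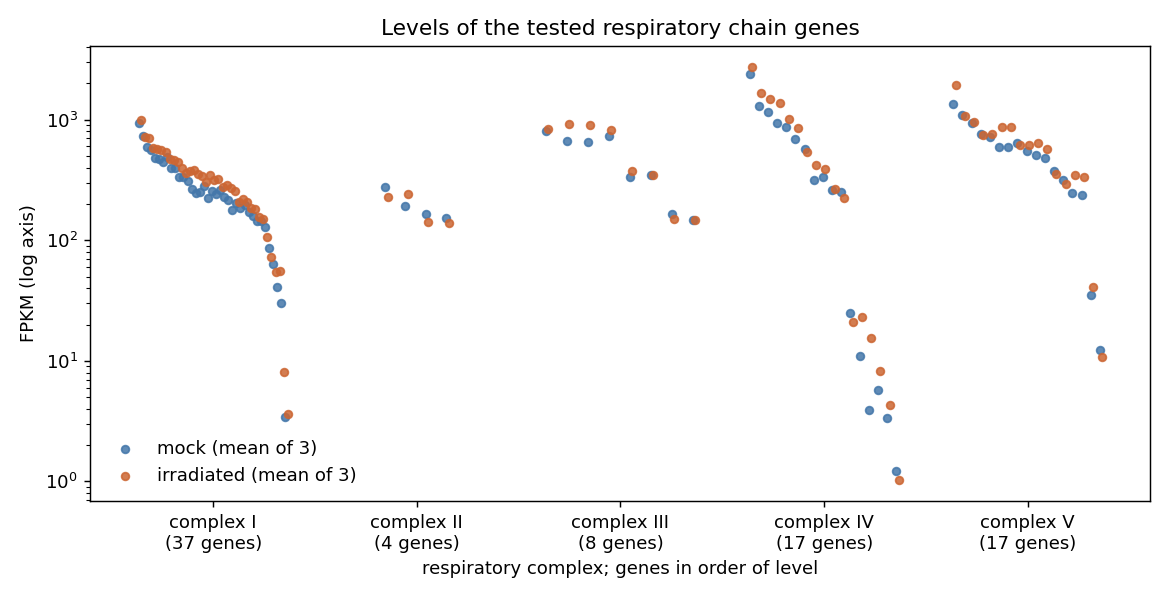
Mean FPKM (log axis) of each tested respiratory chain gene in 3 mock and 3 irradiated libraries, by complex and in order of level. Cox4i1 is highest at a mean of 2565 FPKM over the 6 libraries, and 6 complex IV isoforms lie below 30 FPKM in both groups.

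In complex I none of the 37 genes was called, and no gene had groups that did not overlap. The median log2 change was 0.17, with 31 positive and 6 negative. The core subunits given here, which hold the flavin and the iron-sulfur clusters or lie beside them, had log2 changes between −0.27 and 0.26. Ndufs1, which carries several of these clusters, measured 72.6, 104 and 83.7 FPKM under mock treatment and 66.0, 75.8 and 74.8 after irradiation (log2 change −0.25, SE 0.18). Ndufv1, the flavin-binding subunit, measured 161, 169.8 and 221 FPKM under mock treatment and 255, 183 and 220.0 after irradiation, and the groups overlapped. Log2 changes of Ndufs3, Ndufs7, Ndufs8 and Ndufv2 were 0.16, 0.24, 0.14 and −0.27, each with an adjusted p of at least 0.527 in limma.

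Among the accessory subunits of complex I, Ndufa7 had the smallest p. It measured 235, 233 and 325 FPKM under mock treatment and 467, 289.6 and 396 after irradiation, and its log2 change was 0.53 (SE 0.24, limma adjusted p = 0.208). Irradiated library 2 fell within the mock range. Ndufa13, also known as Grim19, had log2 change 0.45 (limma adjusted p = 0.352) and Ndufa8 had 0.40 (limma adjusted p = 0.354), and in both irradiated library 1 was the highest of the 6. Ndufa4, named for complex I but since assigned to complex IV, was the most abundant of the group, at 822, 990.1 and 995 FPKM under mock treatment and 1402, 767 and 786 after irradiation. Ndufa9, which helps hold the junction between the arms of complex I, was the steadiest member of all, its highest library 1.18 times its lowest.

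Ndufs5, an accessory subunit, was the least steady. It measured 4.15, 73.9 and 12.4 FPKM in mock libraries. In irradiated libraries it was listed at 0 in library 1 and measured 14.7 and 9.64 FPKM in libraries 2 and 3. Mock library 2 alone stood far above the other 5. Of its 75-nucleotide stretches, 32.4% also occur in transcripts of other genes, chiefly in BC002163, a processed pseudogene, so reads could be divided among them. BC002163 measured 0, 0.169 and 0.705 FPKM under mock treatment and 1.29, 0.209 and 0.374 after irradiation.

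Complex II, which has only nuclear-encoded subunits and is also succinate dehydrogenase of the citric acid cycle, had a median log2 change of −0.18 over its 4 genes. Sdha, the flavoprotein, measured 253, 301 and 268 FPKM under mock treatment and 196, 260.1 and 227 after irradiation (log2 change −0.27, SE 0.19, limma adjusted p = 0.389). Sdhb, the iron-sulfur subunit, was the 1 gene of the complex with a positive log2 change, at 168, 174 and 237 FPKM under mock treatment and 264, 189.8 and 268 after irradiation (log2 change 0.32, SE 0.22, limma adjusted p = 0.398). The membrane anchors Sdhc and Sdhd had log2 changes of −0.21 and −0.15. In none of the 4 were the groups apart.

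In complex III, 7 of 8 log2 changes were positive, with a median of 0.06 and no call. Uqcrfs1, the Rieske iron-sulfur protein, measured 124, 169.8 and 149 FPKM under mock treatment and 171, 138 and 135 after irradiation (log2 change 0.01, SE 0.19). The core proteins Uqcrc1 and Uqcrc2 had log2 changes of 0.16 and −0.10. The small subunits Uqcr11 and Uqcr10 had the lowest p of the complex, with log2 changes of 0.45 and 0.53 and limma adjusted p of 0.365 and 0.408. Uqcr10 ranged from 412 to 1045 FPKM within the mock group alone, wider than the difference between the group means. Uqcrq, the most abundant, varied 1.20-fold over the 6 libraries.

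Complex IV held the 1 call and all 3 genes whose groups did not overlap. Over all genes tested, 7.72% were called and groups did not overlap for 31.5%, with 13.7% above. The median log2 change of its 17 tested genes was 0.26, with 12 positive and 5 negative. Cox6a2 lies on chromosome 7, at chr7:128205435-128206387 on the minus strand (GENCODE, GRCm38, the assembly behind mm10). It encodes the heart and skeletal muscle form of subunit 6A, a regulatory subunit at the dimer interface, and in mouse brain it has also been linked to parvalbumin interneurons. Mock libraries held 2.83, 3.58 and 5.27 FPKM of Cox6a2, and irradiated libraries held 14.7, 13.3 and 18.7 FPKM. Every irradiated library was above every mock library. The means were 3.89 ± 1.25 and 15.6 ± 2.82 FPKM (SD, n = 3 each), and the log2 change was 1.89 (SE 0.23, 95% interval 1.36 to 2.43, limma adjusted p = 0.0027). It was called under each of the 18 alternatives run, with log2 changes from 1.67 to 2.11 and adjusted p up to 0.015, and the smallest change came from the length and GC correction. Among these, the looser threshold of an adjusted p under 0.1 reused the main fit and could not remove the call.

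Levels of muscle genes were set beside this result. All 13 skeletal muscle markers were in the table and none was at 0 in all libraries. Ckm, muscle creatine kinase, stayed at or under 0.17 FPKM in every library. The 12 markers other than Pvalb summed to 7.76, 5.53 and 13.9 FPKM under mock treatment and 11.5, 12.1 and 19.9 after irradiation, so the groups overlapped. Acta1, skeletal actin, measured 4.42, 1.88 and 6.03 FPKM under mock treatment and 6.71, 7.90 and 13.9 after irradiation. Its groups did not overlap (log2 change 1.17, SE 0.39, limma adjusted p = 0.104). Mb, myoglobin, lay lower after irradiation, also without overlap (log2 change −0.43, SE 0.18, limma adjusted p = 0.181). Over the 7 tested markers of the list, Pvalb included, the median log2 change was 0.13. Pvalb, parvalbumin, which marks fast interneurons and Purkinje cells as well as muscle, fell (log2 change −1.92, limma adjusted p = 0.033), with 281, 496 and 282 FPKM under mock treatment and 176, 79.6 and 51.3 after irradiation. The whole list therefore summed to between 289 and 501 FPKM in mock and between 71.2 and 187 in irradiated libraries. The 7 cardiac muscle markers summed to between 4.52 and 13.8 FPKM in mock and between 6.38 and 21.1 in irradiated libraries. Among them Tnnt2, cardiac troponin T, did not overlap between the groups, at 1.81, 1.27 and 3.43 FPKM under mock treatment and 5.13, 4.08 and 7.32 after irradiation (log2 change 1.22, SE 0.32, limma adjusted p = 0.053). Nppa and Tnni3 varied within groups, from 0.271 to 8.55 FPKM and from 0.913 to 5.13 FPKM in irradiated libraries. The part of muscle genes in the Cox6a2 result was not tested.

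The ubiquitous partner Cox6a1 measured 941, 726 and 1150.3 FPKM under mock treatment and 1413, 1061 and 1615 after irradiation (log2 change 0.54, SE 0.27, limma adjusted p = 0.248). Cox6a2 was thus a small part of the pair, and its share of the summed FPKM was 0.30, 0.49 and 0.46% under mock treatment and 1.03, 1.23 and 1.15% after irradiation. The shares did not overlap, and the ratio of mean shares was 2.74. An exact two-sided permutation test gave p = 0.1, the smallest value that 3 against 3 allows, and 0.333 after adjustment over the 10 isoform shares compared. A share within a library does not change with a common factor applied to all its genes. It can change with a correction for length or GC content, in which the isoforms differ. Cox6a2 has no 75-nucleotide stretch in common with another gene, and its longest exact run shared with Cox6a1 is 12 nucleotides.

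Cox6b2, the testis form of subunit 6B on the intermembrane side, was the next member by p. It measured 10.8, 9.13 and 13.1 FPKM under mock treatment and 37.3, 13.3 and 18.4 after irradiation. The groups did not overlap, although irradiated library 2 lay only just above mock library 3, and irradiated library 1 stood apart at 37.3 FPKM. The log2 change was 0.91 (SE 0.34, limma adjusted p = 0.139), and it was 0.50 without irradiated library 1. As a share of subunit 6B, Cox6b2 made up 1.66, 1.26 and 1.84% under mock treatment and 2.95, 2.15 and 2.52% after irradiation (exact permutation p = 0.1, adjusted 0.333). The widespread Cox6b1 had groups that overlapped, with a log2 change of 0.24.

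Promoter windows of 3 of these genes are shown because they carry, or lack, motifs long associated with respiratory chain genes. No window was found for Cox6a2 in the reference used, so its motifs are not known here. Each window runs from 250 bases before to 50 bases after the transcript start (RefSeq, GRCm38.p6, 5′ to 3′ on the gene's strand). Cox6a1 is at chr5:115348909-115349208, Cox6b1 at chr7:30626065-30626364 and Cox6b2 at chr7:4753045-4753344, all on the minus strand. Capitals mark GCGCATG, the core of the site of nuclear respiratory factor NRF-1, or CCGGAAG, the core of the site of GABP, on either strand.
Cox6a1: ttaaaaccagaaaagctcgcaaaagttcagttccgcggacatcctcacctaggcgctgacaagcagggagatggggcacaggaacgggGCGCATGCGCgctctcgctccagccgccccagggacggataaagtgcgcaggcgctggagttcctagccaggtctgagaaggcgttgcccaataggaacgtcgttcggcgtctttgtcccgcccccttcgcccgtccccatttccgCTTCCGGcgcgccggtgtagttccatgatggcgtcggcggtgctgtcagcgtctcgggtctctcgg
Cox6b1: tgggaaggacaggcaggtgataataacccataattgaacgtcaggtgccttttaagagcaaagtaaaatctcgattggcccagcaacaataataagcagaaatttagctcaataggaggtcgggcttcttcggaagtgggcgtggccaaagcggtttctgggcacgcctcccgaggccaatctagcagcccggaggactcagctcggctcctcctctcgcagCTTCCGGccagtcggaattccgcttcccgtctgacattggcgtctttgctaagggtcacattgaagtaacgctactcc
Cox6b2: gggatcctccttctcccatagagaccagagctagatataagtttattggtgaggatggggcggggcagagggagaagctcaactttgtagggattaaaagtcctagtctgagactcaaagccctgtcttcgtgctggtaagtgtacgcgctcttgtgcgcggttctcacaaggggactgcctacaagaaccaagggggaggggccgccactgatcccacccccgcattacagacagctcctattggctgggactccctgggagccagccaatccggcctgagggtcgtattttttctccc
The Cox6a1 window holds both motifs, with GCGCATG on each strand in an overlapping pair, the Cox6b1 window holds the GABP motif close to the start, and the Cox6b2 window holds neither. Promoter windows were found for 66 of the 84 members. GCGCATG was found for 13 of the 66 genes, in 18.3% of 71 member windows against 3.91% of all 32851 windows. CCGGAAG was found for 16 genes, in 22.5% of member windows against 8.86% of all. The YY1 motif AAGATGG was found for 10 genes, in 14.1% against 6.34%. Both strands were searched for each motif. These matches are descriptions of letters in a window and not binding sites.

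Cox8a, the widespread form of subunit 8, measured 1085, 1191 and 1209 FPKM under mock treatment and 1371, 1377 and 1677 after irradiation. All 3 irradiated values were above the mock values, but its log2 change, 0.34 (SE 0.22), was not called (limma adjusted p = 0.368). Cox8b, the heart and skeletal muscle form, measured 4.17, 3.28 and 9.72 FPKM under mock treatment and 12.9, 3.89 and 7.73 after irradiation, and the groups overlapped. A further muscle form, Cox7a1, measured 19.4, 26.9 and 27.8 FPKM under mock treatment and 32.0, 19.4 and 11.8 after irradiation (log2 change −0.32, SE 0.33, limma adjusted p = 0.567). Its share of the Cox7a1, Cox7a2 and Cox7a2l sum was 3.64, 4.41 and 4.19% under mock treatment and 3.25, 3.52 and 2.04% after irradiation, with no overlap (exact permutation p = 0.1, adjusted 0.333).

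Among the remaining complex IV genes, Cox4i1 measured 1992, 1653 and 3479 FPKM under mock treatment and 3105, 2013 and 3147 after irradiation, with mock library 3 the highest of all. Cox4i2, the oxygen-responsive form known from lung, measured 3.02, 4.51 and 2.52 FPKM under mock treatment and 6.60, 2.97 and 3.38 after irradiation. Cox5a and Cox5b, both nuclear-encoded subunits without a tissue form in mammals, had log2 changes of −0.06 and 0.23. Log2 changes were 0.34 for Cox7a2, −0.14 for Cox7b and −0.15 for the testis form Cox7b2. Cox7a2l, which takes part in joining complexes III and IV into supercomplexes, was at −0.01. None of these genes was called.

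Complex V had 17 genes, no call, 11 positive and 6 negative log2 changes, and a median of 0.16. Subunits of the catalytic head and its stalk differed in log2 change, from −0.05 for Atp5c1 to 0.61 for Atp5e, the largest of the complex. Atp5b, the beta subunit where ATP is made, measured 932, 1197 and 1159 FPKM under mock treatment and 1183, 994 and 1044 after irradiation, and its highest library was 1.28 times its lowest. Atp5a1 and Atp5c1, the alpha and gamma subunits, had log2 changes of −0.04 and −0.05. Atp5e, the epsilon subunit, measured 483, 319 and 966 FPKM under mock treatment and 1159, 490.3 and 941 after irradiation, and the groups overlapped (SE 0.45, limma adjusted p = 0.418). For Atp5d, the delta subunit, the log2 change was 0.34 (limma adjusted p = 0.482). Atp5k, which helps ATP synthase form dimers, measured 1228, 1162 and 1666 FPKM under mock treatment and 2599, 1353 and 1902 after irradiation (log2 change 0.50, SE 0.31, limma adjusted p = 0.341), with irradiated library 2 inside the mock range. The rule also took in Atp5s and Atp5sl, which carry ATP synthase names but are known as a coupling factor and an assembly protein of complex I, and their means were 11.6 and 38.4 FPKM.

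The c ring of ATP synthase is built from 1 mature protein encoded by Atp5g1, Atp5g2 and Atp5g3. Atp5g3 gave the most RNA, with 60.01, 61.74 and 58.40% of the sum in mock and 46.96, 60.60 and 53.07% in irradiated libraries. Irradiated library 2 lay inside the mock range, so these shares overlapped (exact permutation p = 0.3, adjusted 0.5). Atp5g1 and Atp5g2 had log2 changes of 0.42 and 0.47 with limma adjusted p of 0.376 and 0.32. Every 75-nucleotide stretch of the Atp5g2 transcript used is also found in Gm10175, so its level is uncertain. Shares of Cox4i2, Cox7b2, Cox8b and Ndufa4l2 in their families overlapped between the groups too.

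**Figure D3:**
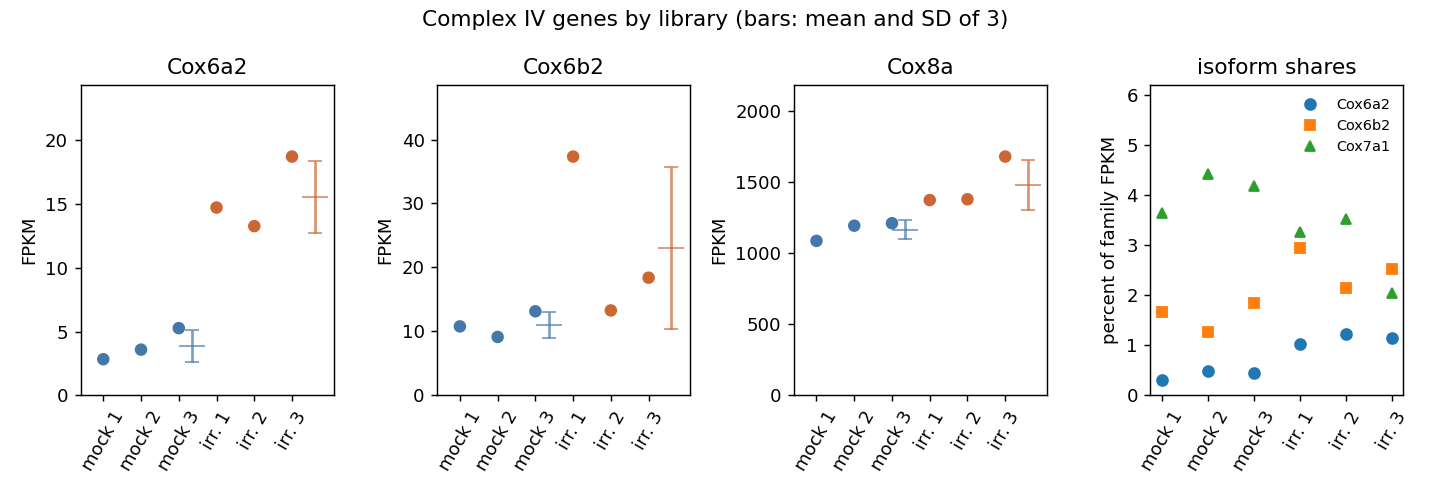
FPKM of Cox6a2, Cox6b2 and Cox8a in each library, with the mean and SD of 3 mock (blue) and 3 irradiated (orange) libraries, and, in the last panel, the shares of Cox6a2, Cox6b2 and Cox7a1 in the summed FPKM of their families (percent). Cox6a2 lies between 2.83 and 5.27 FPKM in mock and between 13.3 and 18.7 in irradiated libraries.

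Within groups, the members moved together by library. Each gene's deviation from its own mean over the 6 libraries had a median over members of −0.30, −0.08 and 0.09 in mock libraries and 0.36, −0.22 and 0.07 in irradiated libraries on the log2 scale. The span of 0.66 compares with 0.07 over all genes tested. Of the 83 members, 49 were highest in irradiated library 1 and 44 were lowest in mock library 1, while none was highest in mock library 1 or irradiated library 2. Over all genes tested, 18.5% were highest in irradiated library 1, 15.2% in mock library 1 and 8.17% in irradiated library 2. The share of all genes lowest in mock library 1 was not counted. Members took 6.13, 6.73 and 7.05% of the summed FPKM in mock and 7.62, 6.08 and 6.43% in irradiated libraries. Complexes I, III, IV and V shared the pattern, with medians in irradiated library 1 between 0.30 and 0.48. Complex II departed from it, with its highest median, 0.26, in mock library 2 and its lowest, −0.18, in irradiated library 3.

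**Figure D4:**
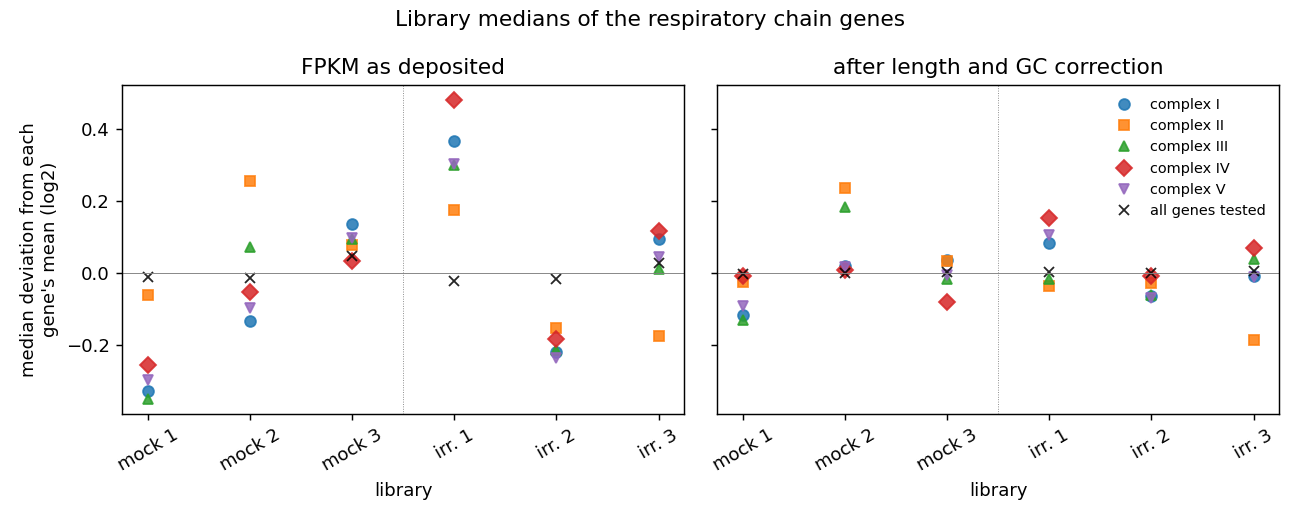
Median deviation of each complex's genes, and of all genes tested, from their own means in each library (log2 scale), as deposited on the left and after the length and GC correction on the right. In the left panel irradiated library 1 is highest for complexes I, III, IV and V, and over all members the span falls from 0.66 to 0.16 with the correction.

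Transcript length and GC content moved with this pattern. The median member transcript is 758 nucleotides long against 2798 for all genes tested. Tested genes under 600 nucleotides that are not members (297 genes) had median deviations of −0.20, −0.08 and 0.14 under mock treatment and 0.31, −0.18 and 0.07 after irradiation. The 26 members of that length had −0.37, −0.16 and 0.14 under mock treatment and 0.48, −0.21 and 0.17 after irradiation. Other genes of 4000 nucleotides or more showed the opposite signs in mock library 1, at 0.16, and in irradiated library 1, at −0.28. The 1 member of that length, Atp5g1, did not follow them, at −0.29 in mock library 1 and 0.82 in irradiated library 1. Its 4660 nucleotides are the length of the transcript chosen here, and the transcript behind its deposited FPKM is not known. Across the 83 members, which share the same libraries, the log2 change had a Spearman correlation of −0.34 with length and 0.52 with GC content, given as a description. After each library was corrected for both properties the span of the member medians was 0.16 in place of 0.66. The part of length or GC content in the pattern was not tested.

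**Figure D5:**
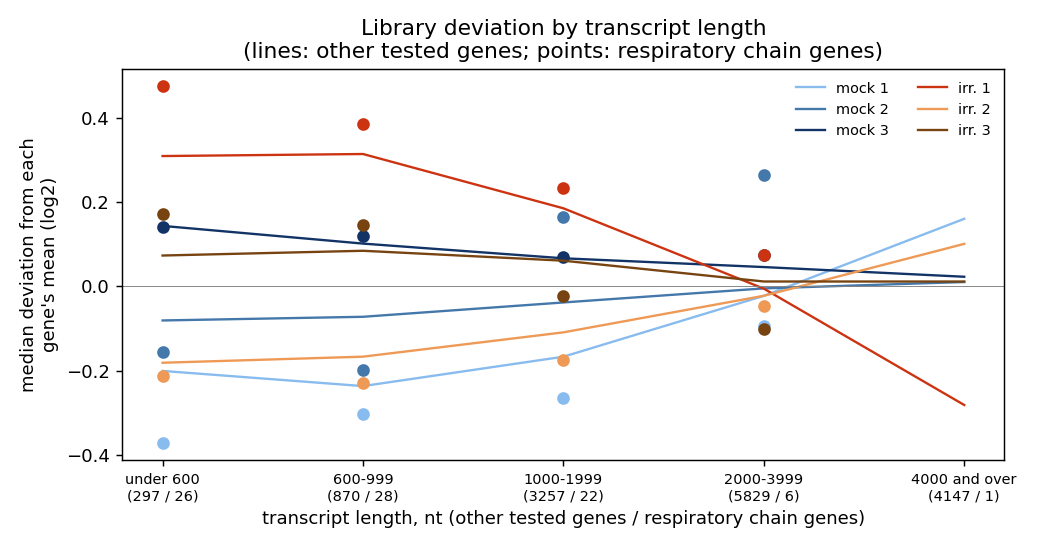
Median deviation from the gene mean per library (log2 scale) by transcript length, with lines for tested genes that are not members and points for members in classes with at least 5 of them, which leaves out the 1 member of 4000 nucleotides or more. Under 600 nucleotides, irradiated library 1 is at 0.48 for members and 0.31 for other genes, and mock library 1 is at −0.37 and −0.20.

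Sequence shared with other genes limits the levels of some members. No 75-nucleotide stretch was shared for 48 of the 83 tested members. At least 10% was shared for 21, at least 25% for 11 and at least 50% for 3, namely Atp5g2, Atp5l with 76.0% and Cox7c with 50.4%. How reads of such stretches were divided is not given in the sources used here.

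Genes around the respiratory chain were counted from lists in the same fit. Over 124 tested genes, 3 were called higher and 1 lower, against 3.48% higher and 4.24% lower over all genes tested, so neither count exceeded the background share. The 6 tested subunits and carriers that the naming rule misses (median log2 change 0.11), 46 assembly factors (0.05) and 17 citric acid cycle genes (−0.11) had no call in either direction. The assembly factors with the smallest p were Cox18, which helps insert a mitochondrially encoded complex IV subunit into the membrane (log2 change 0.53, limma adjusted p = 0.079), Ndufaf3 (0.57, adjusted p = 0.0996) and Cox11 (−0.58, adjusted p = 0.116). Among the subunits and carriers, Ndufab1, the mitochondrial acyl carrier protein, had −0.30, Cycs, cytochrome c, −0.35 and Atpif1, the ATP synthase inhibitor, 0.27. In the citric acid cycle the smallest p were those of the succinyl-CoA ligase subunits Suclg2 (−0.49, limma adjusted p = 0.153) and Sucla2 (−0.33) and of malate dehydrogenase Mdh2 (0.35). None of the 13 subunits encoded by mitochondrial DNA was found in the expression table under the names searched, so they could not be analysed.

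Of 16 tested regulators of mitochondrial biogenesis, Esrrg fell and none rose, and the list median was −0.26. Esrrg, an orphan nuclear receptor that activates oxidative metabolism genes, measured 15.3, 17.3 and 12.7 FPKM under mock treatment and 5.74, 9.90 and 5.24 after irradiation. The log2 change was −1.10 (SE 0.25, limma adjusted p = 0.033), and of the 6 fits that leave out 1 library the call held only without irradiated library 2. The coactivator Ppargc1a had −0.54 (limma adjusted p = 0.096) and Gabpa, the DNA-binding part of GABP, −0.48 (limma adjusted p = 0.146).

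Of 19 glycolysis genes 2 rose and none fell, with a list median of 0.25. Over all genes tested 3.48% were called higher, and no test of the list against that share was made. Pfkl, the liver-type subunit of phosphofructokinase, measured 46.6, 35.4 and 56.1 FPKM under mock treatment and 75.2, 86.7 and 119.9 after irradiation (log2 change 1.02, SE 0.23, limma adjusted p = 0.037). Ldha, the lactate dehydrogenase subunit that favors lactate formation, measured 144, 145 and 173 FPKM under mock treatment and 249.6, 253 and 368 after irradiation (log2 change 0.89, SE 0.21, limma adjusted p = 0.039). In both genes every irradiated library was above every mock library. Of 20 carriers and outer membrane proteins, Slc25a22, a mitochondrial glutamate carrier, rose, with 79.5, 57.7 and 71.1 FPKM under mock treatment and 119, 113 and 166 after irradiation (log2 change 0.92, SE 0.21, limma adjusted p = 0.034). In the same list Tomm40, the pore of the outer membrane translocase, had 0.50 (limma adjusted p = 0.146) and Phb2, a prohibitin, 0.37 (limma adjusted p = 0.315). The calls of Esrrg, Pfkl, Ldha and Slc25a22 were near the threshold. Pfkl was not called without mock library 1 or 2 or without irradiated library 2 or 3, Ldha was called only without irradiated library 1, and Slc25a22 was not called without any 1 mock library or without irradiated library 3. None of the 4, Esrrg included, was called with no filter on low values.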

How the data were processed

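RNA of 6 brains, 3 mock-irradiated and 3 irradiated, was sequenced by the authors after ribosomal RNA removal with a stranded kit, per the labels' protocols. The deposited values are FPKM, 1 column per library. The submitters' processing notes list TopHat, Cufflinks and Cuffdiff and the build mm10. Neither versions, roles and annotation nor the scaling total were given in the sources used here. Values under 0.05 FPKM gave no common step, so read counts could not be recovered and no count model was used.

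A header line repeated in the table was removed. The fit was made over every gene with a mean of at least 0.5 FPKM, using limma 3.58.1 (R 4.3.3) with a mean-variance trend. The scale was log2(FPKM + 0.5), which understates the change of low genes. Tests were two-sided with Benjamini-Hochberg adjustment over 14585 genes. Isoform shares were compared by exact permutation. The script was tested on simulated data. Limma p-values set a difference between groups against the spread between libraries of a group, with variances moderated across genes. An exact 0 may be a failed estimate.

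Members and lists were chosen with earlier results of these data known. Genes named were each called member, the 3 smallest p and the highest mean per complex, tissue isoforms, core subunits, untested members and the 3 smallest p per list. A withheld gene is not reported here. Others (Ndufs5, Ndufa9, Atp5d, Atp5e, Atp5s, Atp5sl, Atp5l, Cox6c and Cox7c, and the marker genes) were named after their values were seen. Transcript length, GC content and coordinates came from GENCODE M21, and 14483 tested genes had a length. Length and GC were corrected by lowess (span 0.3) per library. That correction, and leaving out mock 2 and irradiated 1 together, were chosen after seeing the data. The NRF-1 core searched in promoters was shortened after counts with a longer form had been seen.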

Additional observations from a re-analysis of the deposited data

How the results depend on the processing

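The respiratory chain kept 1 gene higher and none lower under every alternative run: library weights, robust empirical Bayes, quantile normalization, median centring, pseudocounts of 0.1 and 1, no filter, a filter at 1 FPKM, an adjusted p under 0.1, each library left out, the length and GC correction, and mock 2 and irradiated 1 left out together. The member median log2 change ranged from 0.03 to 0.31 with 1 library left out and was −0.11 after quantile normalization. Over the other lists, 3 genes were higher and 1 lower. With no filter these counts were 0 and 0, and with mock 2 and irradiated 1 left out they were 1 and 0. At an adjusted p under 0.1 they were 5 and 3. The lower count was 2 after quantile normalization, with library weights and with the length and GC correction. With 1 library left out the higher count ranged from 0 to 3 and the lower from 0 to 1. The causes were not tested. Over all genes the counts, 508 higher and 618 lower, ranged from 147 to 673 and from 254 to 695 with 1 library left out. The balance turned with the scaling, at 687 higher and 571 lower after median centring and 643 and 626 after quantile normalization. The counts were 863 and 976 with library weights, 1002 and 1149 at an adjusted p under 0.1, and 869 and 924 with the length and GC correction. Deviations from the group means had r = −0.33, 0.19 and 0.20 between same-numbered libraries over 14585 genes. Between differently numbered libraries r lay between −0.49 and 0.23. With 3 libraries a group these deviations are tied to each other, so the values cannot decide whether the numbers pair mice. With the number as a replicate block the members stayed at 1 higher and 0 lower, against 401 higher and 394 lower over all genes, and Cox6a2, Esrrg, Pfkl, Ldha and Slc25a22 stayed called. The block was not examined for single marker genes. Deposited FPKM give no depth, so no counting interval could be set, and 3 mice a group cannot give an exact p under 0.1.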

Other observations

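Isoforms of glycolytic enzymes were set side by side after their values had been seen. Ldhb, the lactate dehydrogenase subunit that favors pyruvate formation, measured 900.4, 1076 and 1006 FPKM under mock treatment and 1132, 854 and 738 after irradiation (log2 change −0.15, SE 0.24), beside 0.89 for Ldha. Pfkm and Pfkp, the muscle and platelet phosphofructokinase subunits, had log2 changes of 0.22 and 0.04, beside 1.02 for Pfkl. Aldoa, the widespread aldolase, had 0.73 (limma adjusted p = 0.145). Aldoc, the aldolase of astrocytes and of a subset of Purkinje cells, measured 819, 873 and 906 FPKM under mock treatment and 635, 529 and 466 after irradiation (log2 change −0.68, limma adjusted p = 0.082). Whether paralogs differed from each other in their response was not tested.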
